A study of Anoectochilus roxburghii with 9 samples.

Results

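The genes described here stood on opposite sides of the control under the 2 constructs of the study: 52 were higher in ArPHR2 leaves and lower in ArPHR4 leaves than in empty vector leaves, and 55 were lower in ArPHR2 leaves and higher in ArPHR4 leaves. They were chosen by their own levels. CPM, the count of a gene scaled to the total of its library (a share of reads, not a level per length), was averaged over the 3 libraries of each group. A gene was taken if its mean in empty vector leaves was at least 5 and under 1000 CPM and if its means under the constructs lay more than 1.25-fold from that value, above it for one construct and below it for the other. Of 85512 assembled genes, 13686 lay in this range of control levels, and the 107 chosen genes were 0.782% of these. Because the comparisons of each construct with the control made the choice, the levels below are a description; a fit across all genes is given for its counts of calls alone, from which nothing is read.

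The RNA came from leaves of Anoectochilus roxburghii, a medicinal orchid, labelled as wild type and given a transient overexpression treatment, and was taken 3 days afterwards. The 3 groups had 3 libraries each: the empty vector (EV, titled CK), ArPHR2 and ArPHR4, each numbered 1 to 3. All groups, the control included, had thus received a construct, and a deposited list of sample names has YFP, a fluorescent protein tag, in each of its names. No source used here gives the promoter, the way of delivery, the number of plants or whether leaves were pooled, so the spread between libraries may be technical. Library totals were 16032716 to 17244083 counts. Genes carry assembly IDs alone, with no name, function or position beside them in the files, so neither ArPHR2, ArPHR4 nor markers of leaf cell types were looked up, and the labels were not checked against them.

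PHR proteins are MYB-type transcription factors that plants use to respond to phosphate shortage. In Arabidopsis and rice they bind the P1BS element in the promoters of phosphate starvation genes, such as those of phosphate transporters, and SPX proteins hold them back when phosphate is ample. In rice, PHR2 also acts on genes of the arbuscular mycorrhizal symbiosis. Which of the genes below belong to such pathways cannot be read from the files.

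**Figure D1:**
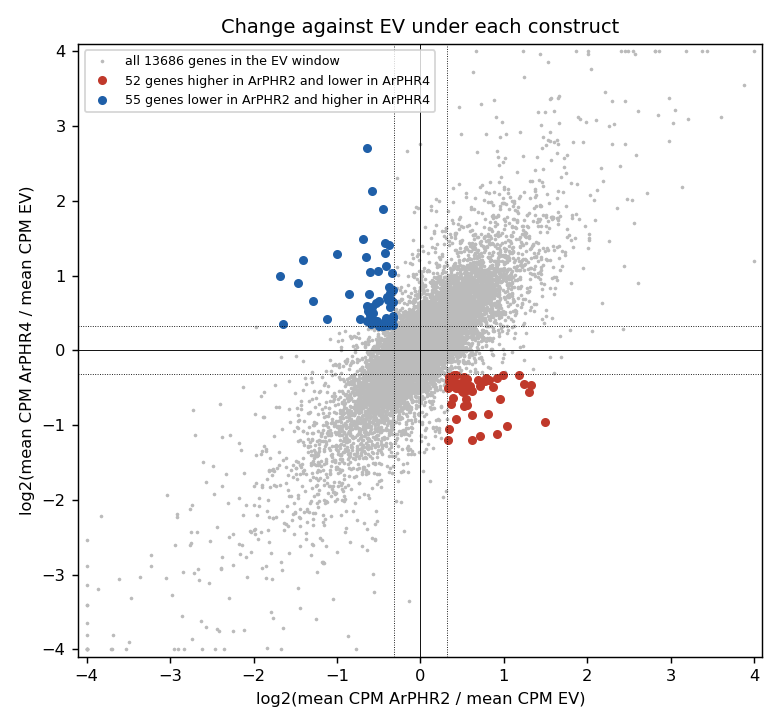
Each point is a gene with an EV mean of at least 5 and under 1000 CPM; the x axis is the log2 ratio of mean CPM in ArPHR2 to EV and the y axis that of ArPHR4 to EV, with ratios past 4 drawn at the edge. Both axes share the EV libraries. The 52 genes higher in ArPHR2 and lower in ArPHR4 are red and the 55 genes of the reverse pattern blue, beyond dotted lines at 1.25-fold.

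In the 52 genes higher in ArPHR2 and lower in ArPHR4, the median log2 ratio to EV was 0.56 in ArPHR2 (0.33 to 1.49) and -0.49 in ArPHR4 (-1.20 to -0.32). The group took 0.267% of all counts in EV leaves, 0.443% with ArPHR2 and 0.185% with ArPHR4. Its summed level was 2667, 2672 and 2661 CPM in the EV libraries, 4411, 4496 and 4374 CPM in the ArPHR2 libraries, and 1862, 1847 and 1840 CPM in the ArPHR4 libraries. In bulk leaf RNA, fewer cells of a type and less RNA per cell cannot be told apart. In 26 of the 52 genes ArPHR2 was further from EV on the log2 scale, and in the other 26 ArPHR4 was. The changes were mostly small: 8 genes lay at least 1.5-fold from EV under both constructs, and 1 at least 2-fold.

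The genes of each direction whose libraries did not overlap between groups were ordered by the smaller of their 2 changes. TRINITY_DN11972_c0_g1 came first. It was at 138, 145 and 148 CPM in the EV libraries, at 397, 409 and 401 CPM in ArPHR2 and at 73.3, 71.8 and 76.7 CPM in ArPHR4. Every ArPHR2 library was thus well above every EV library, and every ArPHR4 library well below. The means were 143.5 ± 4.90, 402.4 ± 6.27 and 73.96 ± 2.5 CPM (SD, n = 3), 2.80-fold higher than EV in ArPHR2 and 1.94-fold lower in ArPHR4. Between the constructs the difference was 5.44-fold. Per length, as FPKM (fragments scaled to transcript length and library depth), the means were 89.6 ± 3.9 in EV, 236 ± 4.8 in ArPHR2 and 43.8 ± 2.7 in ArPHR4.

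TRINITY_DN1095_c0_g1 was at 90.6, 87.9 and 84.3 CPM in EV, 166, 167 and 162 CPM in ArPHR2, and 38.2, 44.5 and 38.8 CPM in ArPHR4. No libraries of different groups overlapped. It was 1.88-fold higher than EV in ArPHR2 and 2.16-fold lower in ArPHR4. Another ID of its assembly component, which is a set of assembled sequences that can share reads, followed it at far fewer reads, with 1.25 CPM in EV, 3.66 in ArPHR2 and 0.493 in ArPHR4.

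From the third to the tenth place, these genes were 1.46-fold to 2.46-fold higher than EV in ArPHR2 and 1.45-fold to 2.22-fold lower in ArPHR4. The fourth was the one 2.22-fold lower, from 21.5 ± 1.88 CPM in EV to 9.71 ± 1.80 CPM in ArPHR4, with 35.2 ± 2.28 CPM in ArPHR2 (SD, n = 3). The eighth leaned to the other side, at 16.5 ± 1.24 CPM in EV, 40.5 ± 0.778 in ArPHR2 and 11.2 ± 2.20 in ArPHR4. The ninth, at 6.66 ± 1.77 CPM in EV, had the closest groups, with an EV library at 8.61 CPM beside an ArPHR2 library at 8.99 CPM.

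The 3 genes of this direction with the most reads in EV were not those with the largest changes. The first of them had 463, 475 and 467 CPM in EV, 939, 941 and 912 CPM in ArPHR2 and 374, 369 and 371 CPM in ArPHR4, a gain of 1.99-fold beside a loss of 1.26-fold. Its replicate spread was narrow, with SDs of 6.08, 16.3 and 2.67 CPM. The second, also the tenth by the smaller change, went from 341.9 ± 5.92 CPM in EV to 503.2 ± 30.8 in ArPHR2 and 236.5 ± 1.29 in ArPHR4. The third was at 294.0 ± 11.2 CPM in EV, 444.5 ± 12.3 in ArPHR2 leaves and 208.1 ± 9.81 in ArPHR4 leaves (SD, n = 3).

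**Figure D2:**
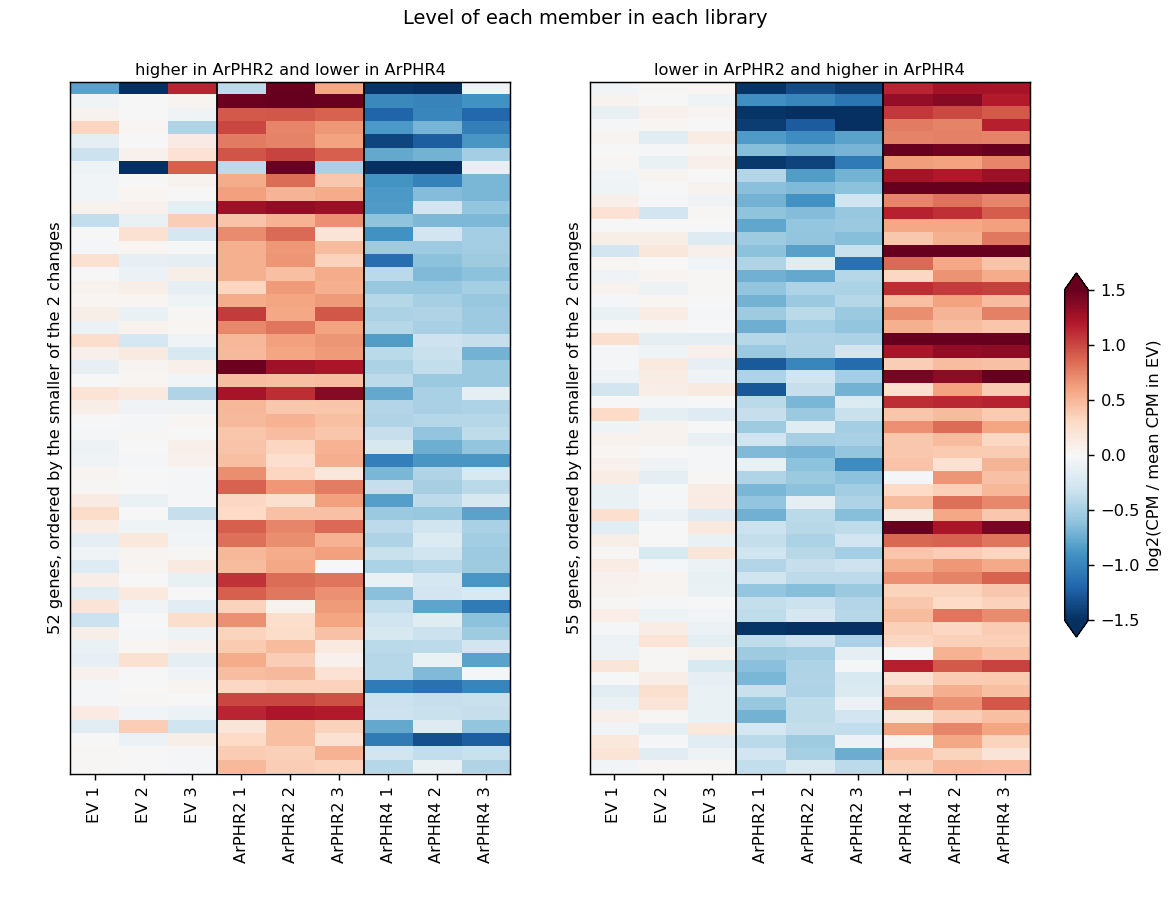
Each row is a gene and each column a library; colour is log2 of CPM over the gene's mean CPM in EV, capped at 1.5 on either side. The left panel has the 52 genes higher in ArPHR2 and lower in ArPHR4, the right panel the 55 of the reverse pattern. A pair of rows near the top of the left panel differs within groups as much as between them.

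In the 55 genes lower in ArPHR2 and higher in ArPHR4, the median log2 ratio to EV was -0.51 in ArPHR2 (-1.68 to -0.33) and 0.63 in ArPHR4 (0.33 to 2.71). Their share of all counts was 0.236% in EV leaves, 0.154% with ArPHR2 and 0.442% with ArPHR4. Summed, they were at 2390, 2383 and 2308 CPM in the EV libraries, 1521, 1527 and 1583 CPM in the ArPHR2 libraries and 4410, 4439 and 4413 CPM in the ArPHR4 libraries. ArPHR2 was further from EV in 27 genes and ArPHR4 in 28. At least 2-fold from EV lay 6 genes in ArPHR2 and 14 in ArPHR4, against 6 and 6 in the first direction. Under both constructs, 13 genes lay at least 1.5-fold from EV and 1 at least 2-fold.

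TRINITY_DN6528_c0_g1 had the largest smaller change of all genes whose libraries did not overlap. It was at 75.5, 78.2 and 79.0 CPM in EV, 27.9, 30.7 and 29.0 CPM in ArPHR2, and 172, 184 and 182 CPM in ArPHR4. The 3 groups were far apart compared with the spread within any of them. It was 2.66-fold lower than EV in ArPHR2 and 2.31-fold higher in ArPHR4, a 6.14-fold difference between the constructs. On the FPKM scale it was at 53.3 ± 4.3 in EV, 18.4 ± 1.4 with ArPHR2 and 130 ± 7.8 with ArPHR4 (SD, n = 3), with no other ID in its component.

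TRINITY_DN4252_c1_g1 was at 61.2, 59.2 and 56.2 CPM in EV, 31.2, 29.8 and 27.5 CPM in ArPHR2, and 147, 152 and 134 CPM in ArPHR4, again with no overlap. It was 2.00-fold lower than EV in ArPHR2 and 2.45-fold higher in ArPHR4. It too had no other ID in its component.

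The third gene in this order had the strongest loss in ArPHR2 among these 55, at 15.3, 17.3 and 17.04 CPM in EV against 5.97, 4.08 and 5.44 CPM in ArPHR2, and was at 34.6, 33.1 and 31.4 CPM in ArPHR4. The ninth had the strongest gain in ArPHR4. It went from 133, 140 and 144 CPM in EV to 930, 906 and 885 CPM in ArPHR4, 6.54-fold higher, while ArPHR2 libraries were at 89.8, 87.6 and 90.6 CPM, 1.55-fold lower. The constructs differed 10.2-fold in this gene. The fourteenth had far fewer reads, with 6.86 ± 1.09 CPM in EV and 4.61 ± 0.779 in ArPHR2, against 30.1 ± 2.76 CPM in ArPHR4 libraries (SD, n = 3). Over the third to the tenth place, the genes were 1.53-fold to 3.21-fold lower in ArPHR2 and 1.58-fold to 6.54-fold higher in ArPHR4.

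By reads in EV, the first gene of this direction was at 525, 512 and 507 CPM in EV, 325, 317 and 346 CPM in ArPHR2 and 682, 678 and 669 CPM in ArPHR4. The second was at 332.2 ± 18.3 CPM in EV, 220.9 ± 6.42 with ArPHR2 and 425.2 ± 11.9 with ArPHR4 (SD, n = 3). The third was the gene with the 6.54-fold gain.

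**Figure D3:**
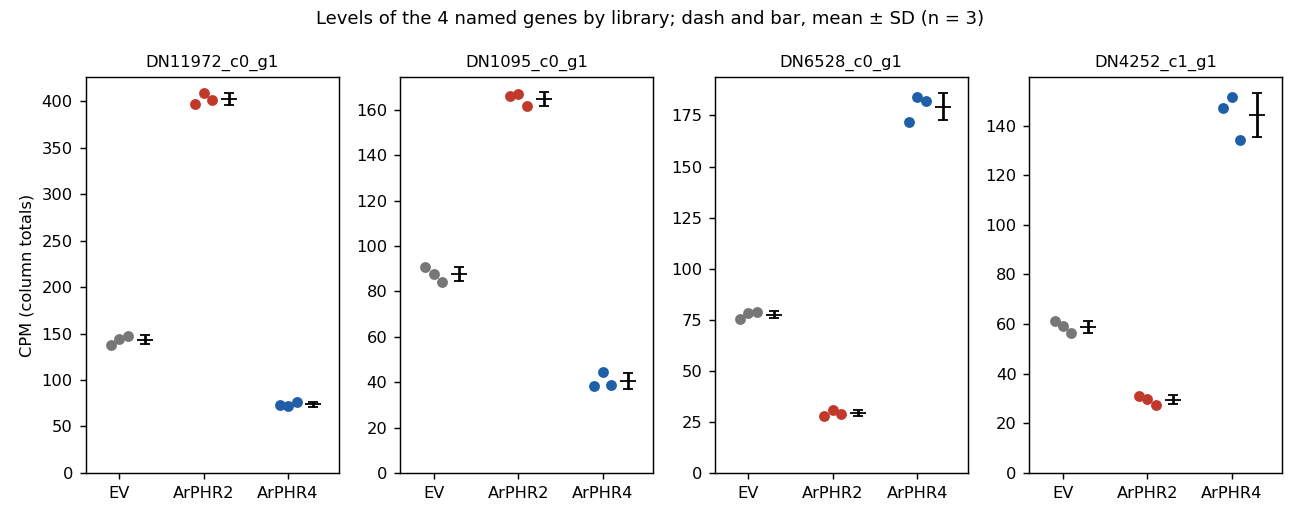
CPM of the 4 named genes in each of the 9 libraries, with axes from 0; each point is a library, and dash and bar are the mean and SD of 3 libraries. In the first pair of panels ArPHR2 lies above EV and ArPHR4 below, and in the second pair the order is turned, with no overlap between groups.

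The libraries of the 3 groups did not overlap in 41 of the 52 genes higher in ArPHR2 and in 48 of the 55 genes higher in ArPHR4. Over all genes in the same range of EV levels, 1.81% and 1.96% were arranged in these orders without overlap; the rule selected on the same values, so nothing is read from the difference. In the other 18 genes at least 1 library crossed into a neighbouring group. All 18 had few reads, with EV means of 5.149 to 15.45 CPM, such as a gene at 6.85, 8.10 and 5.76 CPM in EV, 11.2, 12.5 and 7.92 CPM in ArPHR2 and 3.68, 5.67 and 4.87 CPM in ArPHR4.

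Of these 18, a pair met the rule through single libraries. One was at 3.94, 1.45 and 15.2 CPM in EV, 5.22, 26.7 and 10.3 CPM in ArPHR2 and 2.47, 1.13 and 6.55 CPM in ArPHR4, and it was the gene 2-fold from EV under both constructs in its direction. The other was at 11.5, 2.24 and 22.6 CPM in EV, 9.22, 37.7 and 8.65 CPM in ArPHR2 and 2.83, 1.79 and 11.2 CPM in ArPHR4. Both were highest in the same library of each group: EV 3, ArPHR2 2 and ArPHR4 3, as were 810 genes (5.92%) of the range. In only 8 of the 13686 genes did the SD pass 40% of the mean in each of the 3 groups, and this pair was among them. Of these 8, 3 were highest in these libraries, the pair included. Within the groups these genes varied as much as between them, and they were chosen for mention after their values were seen.

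The genes nearest the 1.25-fold limit show where the choice ends. Among genes higher in ArPHR2, the last inside the limit was at 37.0 ± 0.642 CPM in EV, 48.8 ± 2.51 in ArPHR2 and 29.5 ± 4.03 in ArPHR4, and the next at 123 ± 1.99, 165 ± 10.4 and 98.4 ± 3.4. The first outside was at 128 ± 4.83, 160 ± 8.65 and 73.9 ± 2.27 CPM, and the second at 302 ± 6.5, 378 ± 7.11 and 229 ± 3.62 (SD, n = 3). Among genes higher in ArPHR4, those last inside were at 70.4 ± 1.56, 56.1 ± 3.53 and 95.2 ± 4.79 CPM and at 12.1 ± 1.66, 8.59 ± 1.33 and 15.2 ± 1.37. Those first outside were at 9.61 ± 0.321, 7.01 ± 0.534 and 12.0 ± 0.707 CPM and at 24.1 ± 3.82, 6.15 ± 1.25 and 30.0 ± 1.88, each in the order EV, ArPHR2, ArPHR4. The last of these was further below EV in ArPHR2 than any chosen gene, and its ArPHR4 level kept it out.

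Because the rule picks genes on their means, it was also applied to 6 libraries at a time and read in the 3 libraries it had not used, those with one number in each group. The numbers name libraries, and no source used here says whether they also pair them. Leaving out the libraries numbered 1, 2 and 3, the rule chose 51, 54 and 55 genes as higher in ArPHR2 and lower in ArPHR4, and 48, 52 and 44 of them kept both directions in the libraries left out. That is 94.1%, 96.3% and 80.0% of those chosen, beside 9.18%, 9.70% and 8.53% of all genes in the range with this order in the same 3 libraries. In the reverse direction it chose 74, 55 and 63 genes, of which 57, 46 and 51 kept both directions, or 77.0%, 83.6% and 81.0% beside 12.0%, 12.1% and 13.7% of all genes in the range. With 1 library per group left, these shares have no replicate check, and both ratios use the same EV library.

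The sizes of the changes are set side by side here, libraries that chose first. For the first direction the median log2 ratios of the chosen genes were 0.56, 0.50 and 0.53 for ArPHR2 in the 6 choosing libraries and 0.56, 0.55 and 0.48 in the 3 left out, and for ArPHR4 -0.48, -0.48 and -0.49 against -0.46, -0.52 and -0.51. For the second they were -0.46, -0.51 and -0.49 for ArPHR2 against -0.44, -0.51 and -0.44, and 0.52, 0.59 and 0.53 for ArPHR4 against 0.55, 0.67 and 0.59. Fewer genes passed the full limit again: 27, 30 and 27 genes of the first direction and 36, 29 and 31 of the second lay past 1.25-fold on both sides in the libraries left out, beside 0.491% to 0.511% and 0.548% to 0.621% of all genes in the range.

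**Figure D4:**
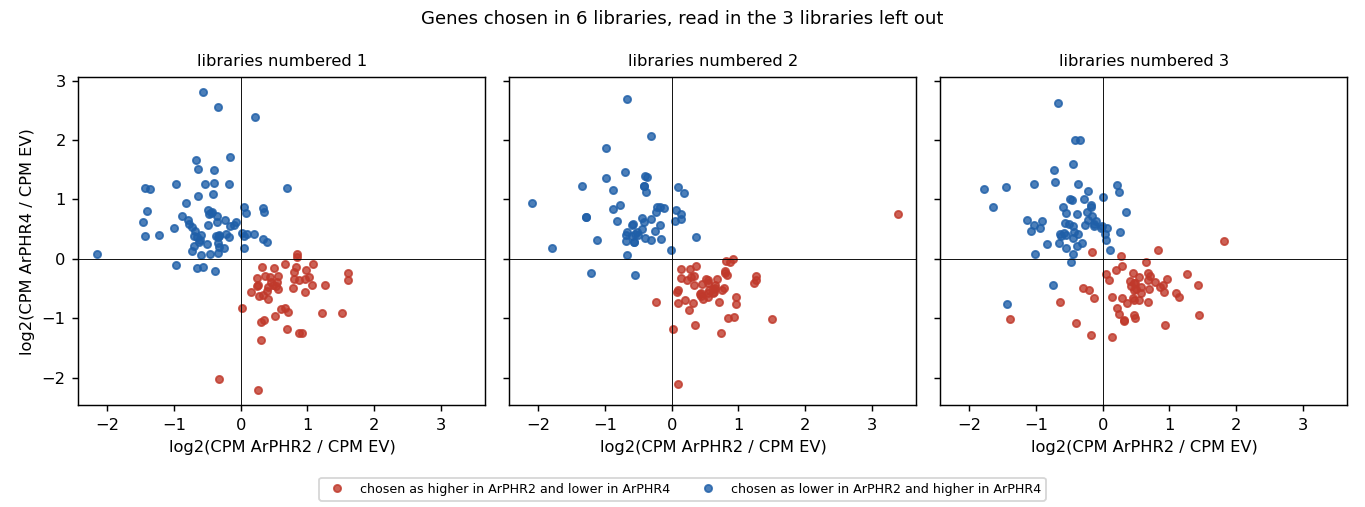
Genes chosen by the rule in 6 libraries, plotted by their log2 ratios in the 3 libraries left out (x axis, ArPHR2 over EV; y axis, ArPHR4 over EV; each panel leaves out 1 library number). Of the genes chosen as higher in ArPHR2 (red), 44 to 52 lie in the lower right quadrant, and of those chosen as higher in ArPHR4 (blue) 46 to 57 lie in the upper left.

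In an edgeR quasi-likelihood fit of all 9 libraries, all 107 genes passed the filter on low counts. In ArPHR2 against EV, 40 of the 52 genes were called higher and 53 of the 55 lower at an adjusted p under 0.05, beside 22.6% and 21.7% of the 27275 genes tested. In ArPHR4 against EV, 50 of the 52 were called lower and 41 of the 55 higher, beside 25.9% and 26.1%. Between the constructs, 52 of 52 and 55 of 55 were called, beside 16.2% lower and 16.3% higher in ArPHR4. These contrasts made the choice, and nothing is read from the counts. The fit scales libraries by TMM, which moved all ratios to EV: the median log2 ratio of the genes in the range was 0.02 for ArPHR2 and 0.06 for ArPHR4 with column totals, -0.05 and -0.04 with TMM and -0.07 and -0.10 with upper-quartile scaling. All 107 genes kept both signs under TMM, upper-quartile and DESeq2 scaling. These scalings moved the median ratios by less than the 1.25-fold limit that every chosen gene had passed. The signs were thus bound to stay, and nothing is read from them. Under all 3 scalings, 40 of the 52 and 33 of the 55 also met the rule.

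Reads in EV, length and assembly were not part of the choice, apart from the range of EV levels. The genes had fewer reads than others in the range, with a median of 14.0 CPM in EV for the first direction and 16.6 CPM for the second, against 29.6 CPM for all 13686. Under 10 CPM lay 34.6% and 30.9% of them, against 17.2%. Implied length, the count divided by FPKM and expressed in bases with the column total as depth, had medians of 872 and 1058 bases against 1233 bases. Under 500 bases lay 13 of the 52 (25.0%) and 8 of the 55 (14.5%), against 10.9% of all, and over 2000 bases 6 and 3, against 19.2% of all. The median coefficient of variation was 6.70% and 6.60% in EV, 6.99% and 8.25% in ArPHR2, and 9.44% and 5.81% in ArPHR4, against 5.41%, 6.11% and 5.91% over the range. In each direction it was highest in the group with the fewest reads. These medians were not tested against the range, and the part of read depth in the choice was not tested.

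Another ID with a count in the same assembly component was present for 18 of the 52 genes (34.6%) and 16 of the 55 (29.1%), against 33.4% of the genes in the range. No component held genes of both directions. In the first direction 2 components held a pair each, those in places 6 and 21 of the order in one and those in places 14 and 16 in the other, so those genes are not independent. Places 6 and 21 were at 18.9 and 97.8 CPM in EV, 28.9 and 132 CPM in ArPHR2 and 10.4 and 70.9 CPM in ArPHR4. A further ID there, at 45.5 CPM in EV, was lower in ArPHR4 (23.4 CPM) but close to EV in ArPHR2 (48.8 CPM). Another, with few reads, had the pattern of both places, at 2.73 CPM in EV, 4.22 in ArPHR2 and 0.485 in ArPHR4. It is counted for each of them below.

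None of the neighbouring IDs with at least 1 CPM in EV, counted once per chosen gene, had the reverse of its partner's pattern past 1.25-fold: 0 of 20 in the first direction and 0 of 14 in the second. In the first direction 7 of 20 had the same pattern, 4 of these being the paired genes themselves, and in the second 0 of 14. In the second direction, 3 were higher and 4 lower than EV under both constructs. The nineteenth gene there was at 38.9 CPM in EV, 27.6 in ArPHR2 and 61.4 in ArPHR4, while its neighbouring ID was at 15.7, 46.4 and 54.4 CPM. With counts summed over the component, 11 of the 18 genes with a neighbour and 7 of the 16 still lay in a component that met the rule, so for the rest the sum did not meet it. Summed over the wider assembly cluster, the counts were 12 of 32 and 22 of 32, so which direction held more often depended on the unit summed.

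Implied length also gave a readout that the rule did not use. It can move when a gene's transcripts change their shares, but what moved it here was not tested. It could be compared for 66 of the 107 genes, those whose 9 libraries all reached 100 counts and 5 FPKM, a filter that leaves out genes low in any group. With limma over 11468 such genes, each library centred on its median, a shift was called for 43 of the 66 genes in ArPHR2 against EV, beside 51.2% of all genes examined. In ArPHR4 against EV it was called for 41, beside 59.9%, and in ArPHR4 against ArPHR2 for 6, beside 11.9%. These counts depended on the centring and fell to 19, 18 and 1 when libraries were centred on gene-wise differences. The last count also moved with single libraries: it was 1 to 5 without 1 library (3 without ArPHR2 1, 3 without ArPHR2 2, 1 without ArPHR2 3, 2 without ArPHR4 1 and 1 without ArPHR4 3), and 1 with a replicate block. The shares called over all genes under these other settings are not given here. The changes in the counts are therefore not read as a trait of these genes. The shifts were small, with a median size on the log2 scale of 0.062 and 0.066 in the 2 directions in ArPHR2 and 0.077 and 0.075 in ArPHR4, against 0.061 and 0.073 over all genes examined. With libraries centred on their medians, most called shifts against EV were towards a greater implied length. In ArPHR2, 17 were longer and 4 shorter in the first direction, and 21 and 1 in the second. In ArPHR4 they were 18 and 2, and 20 and 1. The median shift over all genes examined was also upward with this centring, 0.036 in ArPHR2 and 0.054 in ArPHR4. With gene-wise centring far fewer genes were called longer in ArPHR2, and the lean was weaker there. The lean thus depended on the centring, and nothing is read from it.

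**Figure D5:**
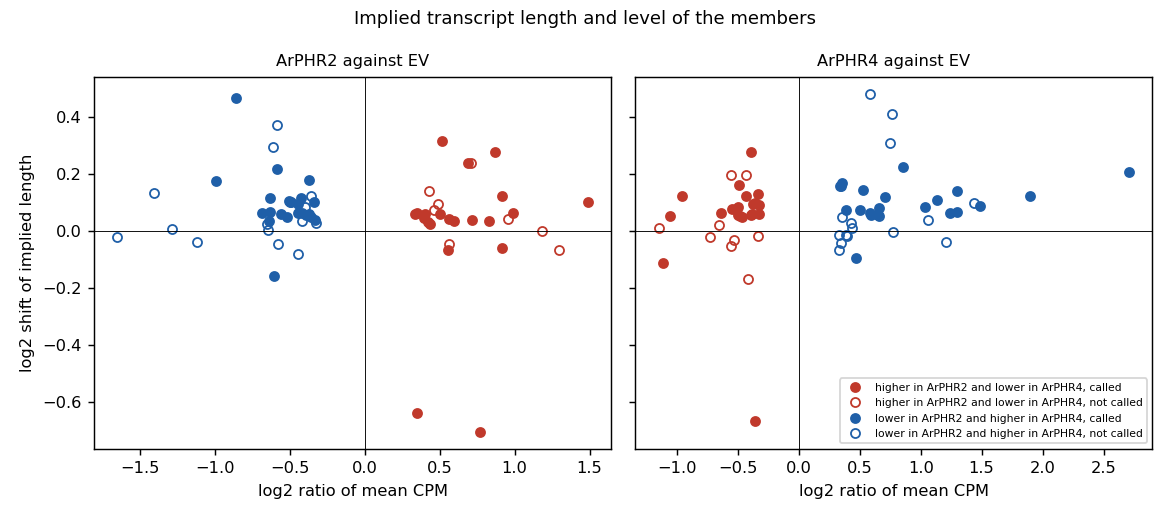
Log2 shift of implied length against EV (y axis) and log2 ratio of mean CPM to EV (x axis) for the 66 genes with a length in every library; filled points were called by limma at an adjusted p under 0.05. Nearly all points lie close to 0 in height, and the points below -0.6 are 2 genes of the first direction.

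Of the 66 genes, 2 shifted by at least 1.5-fold in ArPHR2 against EV, beside 0.488% of all genes examined, and 1 in ArPHR4 against EV, beside 0.855%. Between the constructs 0 of the 66 did, beside 0.0523%. Both genes belonged to the first direction. The gene in place 27 of the order had implied lengths of 809, 864 and 939 bases in EV, 566, 527 and 500 bases in ArPHR2 and 815, 691 and 750 bases in ArPHR4. All 3 ArPHR2 libraries were shorter than any other library. The log2 shift was -0.70 ± 0.079 in ArPHR2 against EV (SE, n = 3, limma adjusted p = 0.00137; 0.00076 to 0.00702 over 12 other settings) and 0.54 ± 0.079 in ArPHR4 against ArPHR2 (limma adjusted p = 0.0124; 0.0134 to 0.0461). Its level was 80.13 ± 0.851 CPM in EV, 136.6 ± 10.8 in ArPHR2 and 60.19 ± 3.22 in ArPHR4, and its FPKM was 92.4 ± 7.8, 257 ± 17 and 80.2 ± 2.3.

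The gene in place 35 had 1288, 1655 and 1620 bases in EV, 857, 1037 and 1014 in ArPHR2 and 1268, 747 and 835 in ArPHR4. Its shift was -0.64 ± 0.21 in ArPHR2 (SE, n = 3, limma adjusted p = 0.0369) and -0.67 ± 0.21 in ArPHR4 (limma adjusted p = 0.0272). Neither call was stable: the adjusted p was 0.0076 to 0.108 and 0.00288 to 0.0822 over 11 other settings, and it passed in 3 and 5 of the 9 fits without 1 library. For ArPHR2 it was lost without any 1 of the ArPHR2 libraries, without EV 2, without EV 3 and without ArPHR4 3, and for ArPHR4 without EV 2, EV 3, ArPHR4 2 or ArPHR4 3. Both calls were also lost with a replicate block. In CPM this gene was at 16.5 ± 0.921 in EV, 21.0 ± 2.39 in ArPHR2 and 12.8 ± 0.543 in ArPHR4, but its FPKM was 10.9 ± 0.96, 21.8 ± 3.6 and 14.3 ± 3.9, so per length its mean was above EV in both groups, with the difference of ArPHR4 from EV smaller than the SD of ArPHR4. The largest called shift towards a greater implied length was of the fifth gene higher in ArPHR4. It was 0.47 ± 0.13 in ArPHR2 against EV (SE, n = 3, limma adjusted p = 0.0233, and 0.00631 to 0.0623 over 11 other settings). The call was lost without any 1 of the EV libraries and with gene-wise centring (limma adjusted p = 0.0526). This gene had 125, 122 and 122 bases in EV and 161, 212 and 141 bases in ArPHR2. Whether values this short are transcript lengths was not tested.

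FPKM comes from the same reads that made the choice. Implied lengths moved little where they could be compared, so most signs were likely to stay, and nothing is read from this. On FPKM means, 50 of the 52 and 55 of the 55 genes kept both signs, and 35 and 46 still passed 1.25-fold on both sides. The genes in places 35 and 25 of the first direction were those that turned. The median log2 ratios on FPKM were 0.47 and -0.51 in the first direction and -0.56 and 0.62 in the second.

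ArPHR4 library 3 stood apart from its group on the third principal component of the genes in the range (11.7 against -5.40 and -6.10), which held 2.08% of the variance. Without it, the rule chose 52 genes in the first direction, 45 of them among the 52, and 58 in the second, 52 of them among the 55. In all, 28 of the 52 and 29 of the 55 genes were chosen again in each of the 9 choices without 1 library.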

How the data were processed

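The deposited table gives, per the file headers, a count and an FPKM for each of 85512 assembled genes in 9 leaf libraries; the IDs have the form of the Trinity assembler. The labels' protocols name a SMARTER mRNA-Seq kit for the libraries. Assembler, aligner, counting tool and strand setting: not given in the sources used here, so antisense and overlapping transcripts cannot be told apart. The authors deposited whole-number counts, and FPKM scaled to length and depth. All per-library columns were used; a table of pairwise values and a list of sample names were not analysed.

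CPM used column totals. The rule, members, orders and alternatives were chosen with earlier results of these data known. In R 4.3.3, edgeR 4.0.16 was the test of counts (filter by group, TMM, quasi-likelihood fit of 3 group means on 9 libraries, Benjamini-Hochberg over 27275 genes). Implied length, as log2(count/FPKM), was tested with limma 3.58.1 over 11468 genes, called at an adjusted p under 0.05. DESeq2 1.42.0 and limma on log2(FPKM + 1) were alternatives. The edgeR and limma fits were tested on simulated data, with outcomes not given here. In each direction the genes whose libraries did not overlap were ordered by the smaller of their 2 log2 ratios: the first 2 are given by ID, the next to place 10 by place, with the 3 with most reads in EV, the genes at the limit and the largest called length shifts. Other genes were mentioned after their values were seen. No 2 libraries looked like 1 deposited again: within groups the median squared difference was 2.06 to 3.44 times counting noise.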

Additional observations from a re-analysis of the deposited data

How the results depend on the processing

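The counts of genes moved oppositely followed the limits set. At 1.5-fold there were 8 genes higher in ArPHR2 and 13 higher in ArPHR4, and at 2-fold 1 and 1. With the upper limit of 1000 CPM kept, there were 202 and 196 with EV means from 1 CPM upward. From 10 CPM upward there were 34 higher in ArPHR2, and all but 17 of the 55 genes higher in ArPHR4. They were 59, 61 and 66 (first direction) and 54, 51 and 52 (second) with TMM, DESeq2 and upper-quartile scaling, and 51 and 75 on FPKM. Without 1 library, or without 1 library number in every group, the counts were 48 to 55 and 49 to 74. In held-out libraries, counting a gene once for each choice that held it, 144 of 160 and 154 of 192 kept both directions. With the fold limit as well, 84 and 96 did. The 3 choices shared libraries and genes, so these are not counts of separate genes. The shares of the range for each choice are given above. Neighbours in the wider assembly cluster were present for 64 genes, against 34 in the component. Implied length was called with a 1.5-fold limit for 2, 1 and 0 genes (ArPHR2 against EV, ArPHR4 against EV, ArPHR4 against ArPHR2), and with gene-wise centring for 19, 18 and 1. Without 1 library the 3 counts were 34 to 42, 35 to 44 and 1 to 5. Without 1 library edgeR called 82 to 95, 85 to 93 and 104 to 107 of the 107 genes; the same contrasts chose these genes, so the counts show nothing of stability. Same-numbered libraries did not deviate together more than others (r of -0.06 to 0.11, against -0.10 to 0.11 for other pairs). With 3 libraries per group this cannot show whether same-numbered libraries were handled together. With the replicate block edgeR called 95, 92 and 107 genes, and the length calls were 41, 39 and 1. For the fits without 1 library, with the block or with gene-wise centring, the shares called over all genes are not given here. Nothing is read from those counts. The causes were not tested. The chosen gene with the lowest EV mean had 95, 84 and 76 counts there, which limits the precision of its ratios.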

Other observations

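Opposite means were also found outside the range of EV levels. Between 1 and 5 CPM in EV, 150 genes of 7123 (2.11%) were higher in ArPHR2 and lower in ArPHR4 past 1.25-fold. The reverse pattern was found in 141 (1.98%). The libraries did not overlap in 36 and 29 of them. The share of all 7123 genes in these orders without overlap is not given here, and the same values made the choice. Nothing is therefore read from these counts. The widest contrast between the constructs among those 36 was in a gene with 28, 28 and 27 counts in EV, 95, 82 and 73 in ArPHR2 and 0, 3 and 0 in ArPHR4. The next had 49, 52 and 35 counts in EV, 172, 201 and 149 in ArPHR2 and 8, 13 and 6 in ArPHR4. Among the 29, the widest was in a gene with 30, 21 and 25 counts in EV, 12, 3 and 7 in ArPHR2 and 37, 50 and 49 in ArPHR4. Of the 71 genes at or over 1000 CPM in EV, 2 were higher in ArPHR2 and lower in ArPHR4, and 0 had the reverse pattern.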
